A study of Mus musculus with 10 samples.

Results

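The neuronal mRNA-binding regulators of translation described here are the FMRP family (Fmr1, Fxr1, Fxr2), the CELF family (Celf1, Celf2, Celf4), the Pumilio protein Pum2 and the cytoplasmic polyadenylation element binding proteins Cpeb2 and Cpeb4. Members were all transcripts in the deposited counts that the annotation assigns to one of these 9 genes. This gave 26 transcripts of 7 genes, out of 22534 transcripts in all. No counted transcript was matched to Celf2 or Cpeb2, and 362 counted transcripts could not be matched to any gene, so these 2 genes are not analysed here. Celf1 had 8 transcripts, Pum2 had 7, Fmr1 had 5, Fxr1 and Celf4 had 2 each, and Fxr2 and Cpeb4 had 1 each.

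The samples were mixed neuron-glia cultures from the cortex of newborn (P0) FVB mice, kept for 7 days in vitro. Cultures 1, 2 and 3 were untreated, and cultures 4 and 5 were depolarized with KCl at a final 55 mM for 3 h. All 5 cultures received cycloheximide, which stalls ribosomes on mRNA, shortly before lysis. From each culture, RNAseq measured transcript abundance, and ribosome footprinting (RF) measured the mRNA fragments covered by ribosomes. The labels do not say whether the cultures came from separate litters, so the p-values measure the spread between these cultures.

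All of these proteins bind mRNA in the cytoplasm and alter how much protein is made from it. FMRP, the product of Fmr1, is lost in fragile X syndrome and is known to associate with polyribosomes and repress many synaptic mRNAs. Fxr1 and Fxr2 are its autosomal paralogs. CELF proteins bind GU-rich elements and act in splicing, mRNA decay and translation, with Celf4 largely restricted to neurons. Pumilio proteins bind UGUA-containing elements in 3′UTRs and recruit deadenylases. CPEB proteins bind U-rich cytoplasmic polyadenylation elements (CPE) and switch mRNAs between short and long poly(A) tails. Their own mRNAs are measured here, not their activity.

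The lead transcript of a gene is the tested one with the most RNAseq reads, and for Fmr1, which had none tested, the one with the most among all 5. Several of these mRNAs carry in their own 3′UTR an element of the type that 1 of these protein families binds. The 3′UTR of each gene's lead transcript was searched on the mRNA strand only, for TGTANATA (Pumilio), TTTTAT and TTTTAAT (CPE) and TGTTTGT (CELF type). The sites shown are a selection: all Pumilio and CELF-type matches, and of the CPE matches those within the last 300 nt. They lie in 3′UTRs whose reads are compared further on, as do the CPE matches that are not shown. Capitals mark the motif, and coordinates are those of GRCm38 on the plus strand, from the GENCODE M21 transcript sequences.
Fmr1, Pumilio, chrX:68717290-68717315: ttaaaatacTGTAGATAattaaccaa
Fmr1, Pumilio, chrX:68717351-68717376: aatattctcTGTACATAttagcgaca
Fmr1, CPE, chrX:68717920-68717943: gatgtaaatTTTTATtaaaaagtt
Pum2, Pumilio, chr12:8750156-8750181: ttatagagaTGTATATAgaattatag
Pum2, Pumilio, chr12:8750409-8750434: gtacagaatTGTATATActtataatt
Pum2, CELF type, chr12:8750792-8750816: ttgtttcagTGTTTGTtatggaagc
Celf1, CELF type, chr2:91013660-91013684: agtttgctgTGTTTGTaaccagttt
Celf1, CELF type, chr2:91016706-91016730: attttattaTGTTTGTttctttctt
Celf1, CELF type, chr2:91016934-91016958: gccgtgtggTGTTTGTatccttgtg
Celf1, CPE, chr2:91019393-91019417: ctaaatctgTTTTAATtgcacagac
Cpeb4, CPE, chr11:31935409-31935432: taattcattTTTTATtaaagtcat

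The whole 4102-nt 3′UTR of Cpeb4 held 11 matches to TTTTAT and 6 to TTTTAAT, that of Celf1-207 5 and 3, that of Pum2-202 5 and 3, and that of Fmr1-201 4 matches to TTTTAT. The 3′UTR of Celf4-201 held 1 match to TTTTAT. The share of whole 3′UTRs that hold a match was not computed. The 3′UTRs of Fxr1-202 (404 nt) and Fxr2-201 (598 nt) held none of the 4 motifs. Within the last 300 nt, TTTTAT was present once in Fmr1-201 and once in Cpeb4-202, and TTTTAAT once in Celf1-207. None of the 7 lead transcripts held a Pumilio or CELF-type match in that window. Among the 5877 tested transcripts with a 3′UTR of at least 300 nt, 29.4% held TTTTAT in the last 300 nt, 12.1% TTTTAAT, 10.2% the Pumilio element and 8.93% the CELF-type motif. A match is a run of letters and was not shown here to be bound.

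The RNAseq libraries held 3056286 to 3629959 reads and the RF libraries 1463654 to 7719915, with untreated culture 3 and KCl culture 4 the shallowest in RF. Levels are given as normalized RPKM, which scale reads by transcript or CDS length and by the reads on tested transcripts after TMM within each assay. A transcript was tested if 2 or more cultures each showed 10 RPKM or more in both assays, here relative to all counted reads. This left 7262 transcripts of 4369 genes. Of the 26 member transcripts, 21 passed. All 5 Fmr1 transcripts missed it, with RNAseq RPKM from 5.75 to 9.63. Fxr2-201 and Cpeb4-202 passed only with the help of the KCl cultures, so their transcript calls are no support for a rise. Every gene was therefore also tested on the sum of its transcripts, with a minimum of 50 reads per assay over all 5 libraries, which all 7 genes passed. Reads were counted on every isoform they match. Of 1286 pairs of tested transcripts of a gene with the same coding sequence, 1274 had the same RF count in all 5 libraries, and so did all 10 such pairs among the members. Isoforms are therefore not independent, and a gene sum counts a shared read once for each isoform.

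In the untreated cultures all 6 astrocyte markers and all 6 neuronal markers were detected. The summed RNAseq level of the astrocyte markers was 3390 to 3940 normalized RPKM in untreated and 2990 to 3200 in KCl cultures, and that of the neuronal markers was 247 to 356 and 295 to 302. The microglial markers, of which 5 of 6 were in the counts, summed to 156 to 172 and to 129 to 142. The oligodendrocyte-lineage markers summed to 1390 to 1610 and to 1360 to 1380, the endothelial markers to 5.4 to 6.72 and to 3.82 to 4.12, and 3 of 4 fibroblast and meningeal markers to 147 to 180 and to 127 to 148. The astrocyte sum is carried by Gfap, at a mean of 2380 in untreated cultures, and the oligodendrocyte-lineage sum by Mbp, at 1360. Of the 6 astrocyte markers tested, 3 (Slc1a3, Aqp4 and Slc1a2) fell in RNAseq, 3 (Slc1a3, Aldoc and Aqp4) rose in RF, and Slc1a3 and Aqp4 rose in TE, by 0.63 and 0.87 in log2. Of 4 neuronal markers tested, Snap25 rose by 0.87 in RF. Pdgfra, of the oligodendrocyte lineage, fell by 0.73 in RNAseq and by 0.28 in RF. Col1a1, of fibroblasts, fell by 0.35 in RNAseq, 1.40 in RF and 1.06 in TE, while Dcn rose by 0.24 and the microglial C1qa by 0.35 in RF. The part of these shifts in the changes below was not tested. In a bulk culture, fewer cells of a type and less RNA per cell cannot be told apart.

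At baseline, the members differed widely in transcript level and in translation efficiency (TE), the ratio of RF on the CDS to RNAseq in the same culture. Celf4-201 was the most abundant, at 49 ± 9.69 normalized RPKM in RNAseq (SD, n = 3 here and for all untreated values). Fxr1-202 followed at 32.7 ± 9.87, Pum2-202 at 26.2 ± 2.99 and Celf1-207 at 25.5 ± 3.91. These 3 overlapped one another, and Fxr1 overlapped Celf4 too. Cpeb4-202 was at 13.3 ± 2.2, Fxr2-201 at 9.81 ± 2 and Fmr1-201 at 8.24 ± 0.893, with single cultures of Fxr2 overlapping those of Fmr1. For comparison, the median tested transcript was at 27.1 normalized RPKM.

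The order by TE was a different one. Fmr1-201 had the highest mean, at 5.17 ± 0.704, above 94.4% of tested transcripts. It is not one of these itself, since it missed the RNAseq minimum, so it is set against more abundant transcripts. Fxr1-202 stood at 4.26 ± 1.44, Celf1-207 at 4.01 ± 0.641 and Fxr2-201 at 3.94 ± 0.947, and all 4 overlapped. Pum2-202 was at 2.06 ± 0.281, where the median over all tested transcripts was 1.81, and the 7 Pum2 transcripts ranged from 2.04 to 3.5. Cpeb4-202 was at 1.44 ± 0.182. Celf4-201 was the lowest, at 0.741 ± 0.0797, above only 8.7% of tested transcripts, and its 3 cultures lay below those of every other lead transcript. The other Celf4 transcript, Celf4-202, stood at 1.01 ± 0.0868, above 18.7% of tested transcripts. This order rests on counting RNAseq reads over the whole transcript. With RNAseq reads on the CDS alone, chosen after the data were seen, the order was another: Fxr2-201 was the highest at 15.2 ± 1.39, then Celf1-207 at 9.58 ± 2.75, Fmr1-201 at 5.08 ± 1.93, Fxr1-202 at 4.2 ± 1.27 and Pum2-202 at 2.93 ± 0.36. Celf4-201 stood at 1.68 ± 0.287 and Cpeb4-202 was the lowest at 0.913 ± 0.193, against a median of 2.28. The low-abundance Fmr1 mRNA carried RF on its CDS of 42.4 ± 5.61 normalized RPKM, against 36.3 ± 8.67 for Celf4, whose transcript level was the highest of the members. Single cultures of Fmr1 and Celf4 overlapped in RF.

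**Figure D1:**
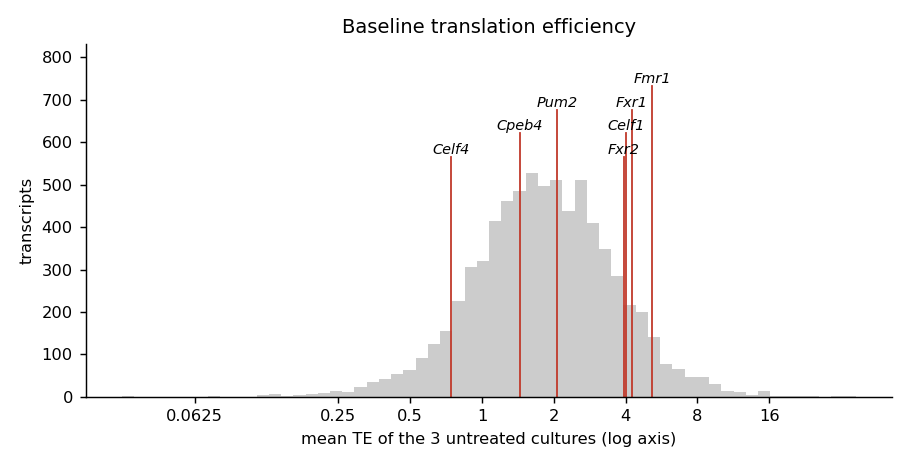
Histogram of the mean TE of the 3 untreated cultures (log axis) over the 7262 tested transcripts (grey), with the lead transcript of each member gene as a red line. Fmr1, Fxr1, Celf1 and Fxr2 stand at 3.94 to 5.17 in the upper part of the distribution, and Celf4 stands at 0.741 in the lower tail. The Fmr1 transcript missed the RNAseq minimum and is not among the transcripts in grey. RNAseq reads are those on the whole transcript, and the order differs with CDS reads.

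**Figure D2:**
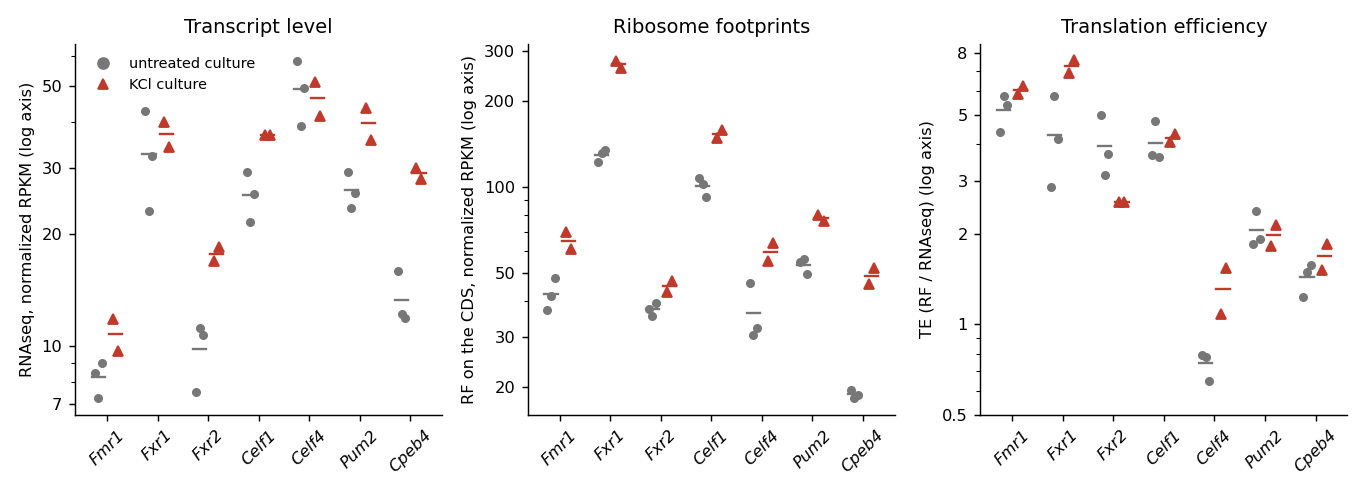
RNAseq and CDS RF in normalized RPKM and TE (all log axes) for the lead transcript of each gene. Each point is a culture (grey circles untreated, red triangles KCl) and each short line a group mean. In RF, both KCl cultures lie above all untreated ones for every gene. In RNAseq they do so for all genes but Fxr1 and Celf4, which overlap between groups. In TE, KCl lies above for Fmr1, Fxr1 and Celf4 and below for Fxr2, and Celf1, Pum2 and Cpeb4 overlap. The share of all transcripts whose groups separate was not computed.

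After KCl, none of the 7 genes passed as lower in gene sums of RNAseq or RF, where 962 and 1334 of all 9286 genes did. For 7 genes, this is near the share over all genes. In gene sums, 5 of 7 rose in RNAseq (Fmr1, Fxr2, Celf1, Pum2 and Cpeb4), where 12.2% of the 9286 genes tested did, and 6 of 7 rose in RF (all but Fxr2), where 15.4% did. The median log2 fold change of the 7 genes was 0.65 in RNAseq and 0.70 in RF, against -0.02 and -0.01 over all genes. No member's gene sum passed in TE with edgeR, where 0.280% of all genes rose. Of the 7, 2 (Fxr1 and Celf4) had an unadjusted p under 0.05, and with DESeq2 0 of 7 passed and again 2 had such a p. The members' median there was 0.24, against 0.01. Of the 19 member transcripts that reached the RPKM minimum in at least 2 untreated cultures, 15 rose in RNAseq, where 14.4% of the 6720 such transcripts did, 19 in RF, where 18.0% did, and 4 in TE, where 1.49% did. Those 4 are the transcripts of Fxr1 and Celf4. Isoforms share reads, so these counts are a description. The members were also chosen with earlier results of these data known, so the shares over all features are no test of the members as a set. Changes are edgeR log2 fold changes, KCl against untreated, with Benjamini-Hochberg adjustment over all features tested. The standard error (SE) is the absolute log2 fold change over the square root of the F statistic, an approximation. Dividing by library totals in place of TMM moves the median RNAseq change of all tested transcripts to -0.10 and the median RF change to -0.14. The split of called transcripts then moves from 1300 higher and 1095 lower to 1052 and 1533 in RNAseq, and from 1511 and 1460 to 1073 and 2107 in RF.

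**Figure D3:**
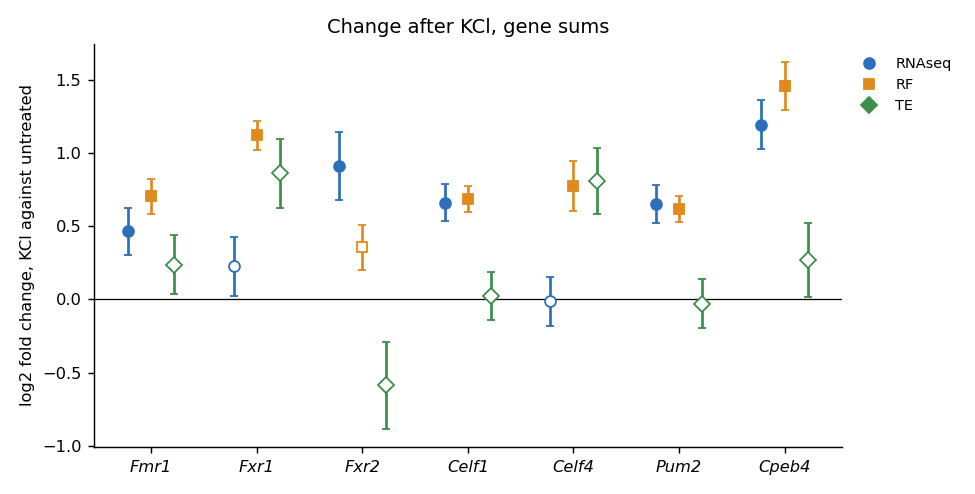
Log2 fold change of KCl against untreated cultures, with SE as error bars, for RNAseq (circles), RF (squares) and TE (diamonds). Each gene is the sum of its transcripts and filled symbols have an adjusted p under 0.05. RNAseq is filled for 5 of 7 genes and RF for 6 of 7, and TE for none.

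Fmr1, on chromosome X (68678541 to 68717963), rose modestly. Its lead transcript Fmr1-201 had 96, 82 and 97 RNAseq reads without and 127 and 117 with KCl, which gave 8.47, 7.25 and 8.99 against 11.8 and 9.72 normalized RPKM. Its CDS had 395, 378 and 95 footprints in untreated and 144 and 241 in KCl cultures, or 37.1, 41.7 and 48.3 against 69.5 and 60.7 normalized RPKM. Both KCl cultures were above all untreated ones in each assay. In gene sums, the RF change was 0.70 ± 0.12 (SE, adjusted p = 4.33e-04) and the RNAseq change 0.46 ± 0.16 (adjusted p = 0.0406). TE did not pass, at 0.24 ± 0.20 (adjusted p = 0.675). The sum counts a read shared by all isoforms 5 times. Tested as single transcripts without a filter, none of the 5 passed in RNAseq (adjusted p = 0.117 to 0.141) and all 5 rose in RF, with adjusted p from 2.58e-06 to 1.11e-05. The RNAseq call was lost without the 3′UTR reads. Reads on the Fmr1-201 3′UTR went from 47, 54 and 34 to 81 and 67, while those on its CDS were 42, 27 and 58 against 40 and 48. With CDS reads alone the RNAseq change was 0.11 (adjusted p = 0.87). The call was also lost with library totals (0.33, adjusted p = 0.144), without untreated culture 2 (0.38, adjusted p = 0.138), without KCl culture 4 (0.31, adjusted p = 0.385) and without KCl culture 5 (0.61, adjusted p = 0.0535).

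Fxr1, on chromosome 3 (34019943 to 34069342), changed in RF and not detectably in RNAseq. Fxr1-202 stood at 42.7, 23 and 32.5 normalized RPKM in the RNAseq of the untreated cultures and at 40.1 and 34.3 in KCl, so the groups overlapped. Its CDS held 969, 887 and 196 footprints in untreated cultures and 424 and 766 in KCl cultures. This corresponds to 123, 132 and 135 against 277 and 261 normalized RPKM, well apart. The RF change was 1.05 ± 0.10 (adjusted p = 6.93e-10), larger than for 95.7% of tested transcripts. The RNAseq change was 0.18 (adjusted p = 0.512). TE went from 2.88, 5.76 and 4.14 to 6.9 and 7.6, a change of 0.85 ± 0.21 (adjusted p = 0.00333), and both KCl cultures were above all untreated ones. The other transcript, Fxr1-201, gave 1.05 in RF and 0.89 in TE (adjusted p = 0.00177).

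The TE call of Fxr1 was lost under several alternatives. In gene sums TE changed by 0.86 ± 0.24 with an adjusted p of 0.0635, and with DESeq2 Fxr1-202 reached an adjusted p of 0.0682. For Fxr1-202 it was also lost without untreated culture 1 (0.56, adjusted p = 0.08), without KCl culture 4 (0.92, adjusted p = 0.0645) and without KCl culture 5 (0.77, adjusted p = 0.228). Untreated culture 1 had the highest RNAseq value and the lowest TE of the untreated cultures.

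Fxr2, on chromosome 11 (69632990 to 69653297), rose in RNAseq and did not pass in RF. Fxr2-201 had 57, 85 and 77 RNAseq reads in untreated and 121 and 148 in KCl cultures, or 7.52, 11.2 and 10.7 against 16.9 and 18.4 normalized RPKM. The gene sum rose by 0.91 ± 0.23 (adjusted p = 0.0079). RF was 37.5, 35.4 and 39.4 against 43.1 and 46.8, and its gene-sum change of 0.35 ± 0.15 did not pass (adjusted p = 0.0917). TE of the transcript was 4.99, 3.15 and 3.69 in untreated and 2.56 and 2.55 in KCl cultures. Both KCl values lay below all untreated ones, but the change of -0.59 ± 0.27 did not pass (adjusted p = 0.205). The CDS of Fxr2 had only 11 to 25 RNAseq reads per library, and with CDS reads alone the RNAseq gene sum was 0.96 (adjusted p = 0.207). Without KCl culture 5 it was 0.84 (adjusted p = 0.0758). Whether Fxr1 and Fxr2 differ from each other in their TE change was not tested.

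Celf1, on chromosome 2 (90940397 to 91019497), rose in both assays. Celf1-207 stood at 29.4, 21.6 and 25.6 normalized RPKM in untreated and at 36.8 and 36.9 in KCl RNAseq. RF stood at 108, 103 and 92.5 against 149 and 159. The groups did not overlap in either assay. The changes were 0.53 ± 0.14 in RNAseq (adjusted p = 0.00269) and 0.59 ± 0.11 in RF (adjusted p = 5.34e-05), and TE was 0.07 ± 0.19 (adjusted p = 0.915). All 8 Celf1 transcripts rose in RNAseq, by 0.53 to 0.69, and in RF, by 0.59 to 0.61. None of the 8 passed in TE, with changes from -0.08 to 0.08.

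Celf4, on the minus strand of chromosome 18 (25477632 to 25753983), had more footprints after KCl without a detectable change in transcript level. Celf4-201 was at 58.4, 39 and 49.5 normalized RPKM in untreated and at 51.2 and 41.5 in KCl RNAseq, which overlap. RF was 46.3, 30.5 and 32.2 against 55.1 and 63.7. It rested on 397, 223 and 51 footprints in untreated and 92 and 204 in KCl cultures. TE was 0.793, 0.782 and 0.65 against 1.08 and 1.54, with KCl above all untreated cultures. The changes were -0.08 ± 0.16 in RNAseq (adjusted p = 0.734), 0.68 ± 0.17 in RF (adjusted p = 0.0026) and 0.80 ± 0.23 in TE (adjusted p = 0.016). For Celf4-202, TE was 1.06, 1.07 and 0.914 in untreated and 1.45 and 2.16 in KCl cultures.

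The Celf4 result depends on how its mRNA is counted. RNAseq reads on its CDS were 88, 75 and 79 in untreated and 94 and 98 in KCl cultures. Those on its 3′UTR were 327, 199 and 266 against 249 and 211. With CDS reads alone, TE changed by 0.45 (adjusted p = 0.50). The TE call was also lost in gene sums (0.81, adjusted p = 0.0685), with DESeq2 (adjusted p = 0.0843), without untreated culture 3 (0.73, adjusted p = 0.0885) and without KCl culture 5 (0.52, adjusted p = 0.641). Without KCl culture 5 the RF call was lost too (0.56, adjusted p = 0.111).

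Pum2, on chromosome 12 (8674134 to 8752581), rose in both assays. Pum2-202 stood at 29.4, 23.5 and 25.7 normalized RPKM in untreated and at 43.7 and 35.8 in KCl RNAseq. RF was 54.8, 55.9 and 49.6 against 79.9 and 76.4, again with no overlap. All 7 transcripts rose in RNAseq, by 0.47 to 0.62, and in RF, by 0.53. For Pum2-202 the RNAseq change of 0.60 ± 0.14 lost its call without KCl culture 4 (0.44, adjusted p = 0.0806). TE changed by -0.05 ± 0.19 (adjusted p = 0.944).

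Cpeb4, on chromosome 11 (31872226 to 31935634), had the largest change of the members in both assays. Cpeb4-202 had 257, 197 and 184 RNAseq reads in untreated and 462 and 484 in KCl cultures, or 15.9, 12.2 and 11.9 against 30.1 and 28.1 normalized RPKM. Its CDS had 241, 192 and 43 footprints in untreated and 110 and 241 in KCl cultures, which gave 19.5, 18.3 and 18.8 against 45.8 and 52.3. Each KCl value was above every untreated value. The gene sum rose by 1.19 ± 0.17 in RNAseq (adjusted p = 3.62e-05), a 2.29-fold rise, and by 1.46 ± 0.16 in RF (adjusted p = 5.50e-06), a 2.75-fold rise. TE changed by 0.27 ± 0.25 (adjusted p = 0.716). RNAseq reads were higher on both the CDS and the 3′UTR, with KCl to untreated ratios of 2.12 and 2.28 in normalized CPM. Cpeb3, with 7 transcripts in the counts and none past the RPKM minimum, also rose in gene sums, by 0.84 in RNAseq (adjusted p = 0.00348) and by 0.74 in RF (adjusted p = 0.00672). No Cpeb1 transcript was matched. The CELF paralogs Celf3, Celf5 and Celf6 did not pass, with gene-sum changes of -0.26, -0.09 and -0.33 in RNAseq and of -0.16, -0.09 and -0.02 in RF.

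**Figure D4:**
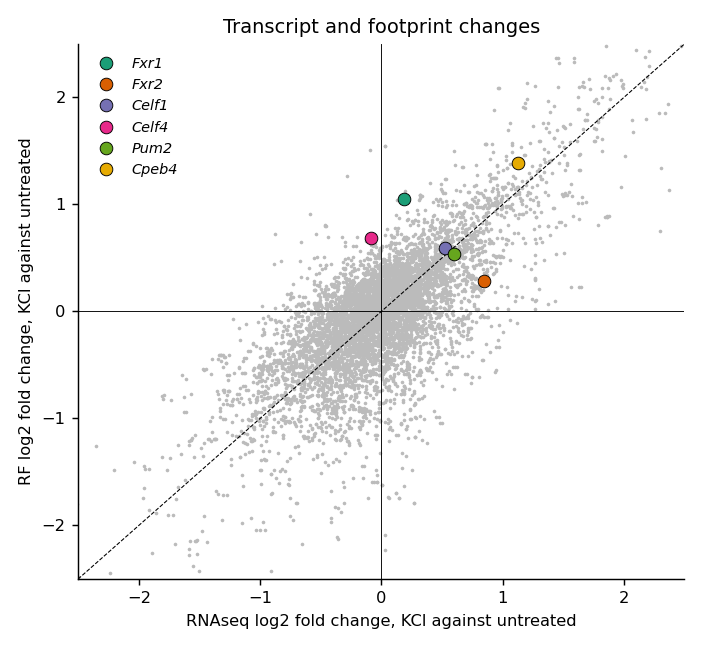
RNAseq against RF log2 fold change, KCl against untreated, for the tested transcripts (grey; 59 of 7262 lie beyond the axes) and the lead transcripts of 6 member genes (coloured). The dashed line marks equal changes; Celf1 and Pum2 lie near it, Fxr1 and Celf4 lie above it and Fxr2 lies below it.

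The isoforms of Celf1 and Pum2 allow the RNAseq reads of their 3′UTRs to be divided by subtraction. In 4 of the 8 Celf1 transcripts a 3163-nt stretch of the 3′UTR (chr2:91013403-91016565) is spliced out, while Celf1-207 keeps it. The stretch contains the first of the 3 CELF-type matches shown above. It held 226, 149 and 148 reads in untreated and 170 and 229 in KCl cultures, or 68.9 ± 16.6 against 76.9 ± 9.94 normalized CPM (SD, n = 3 and 2), and the groups overlapped. The rest of the 3′UTR, which contains the other 2 matches, held 329, 242 and 288 against 453 and 487 reads, or 113 ± 17.2 against 182 ± 5.44 normalized CPM. Here both KCl cultures were above all untreated ones. The ratio of KCl to untreated was 1.12 in the stretch and 1.61 in the rest. The difference between these ratios was not tested, and reads across the splice junction fall to the short forms.

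In Pum2, whose 3′UTRs end at different points, all 3 pieces were higher in both KCl cultures. The first 600 nt held few reads, 8, 3 and 6 in untreated against 19 and 32 in KCl cultures. The next 1134 nt rose from 32.6 ± 6.73 to 53.6 ± 13.7 and the last 1107 nt from 71.4 ± 10 to 105 ± 20.8 normalized CPM. The 2 Pumilio matches lie in the first and the second piece. Most Pum2 3′UTR reads thus lay beyond the end of Pum2-201, whose 3′UTR is the first piece only.

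**Figure D5:**
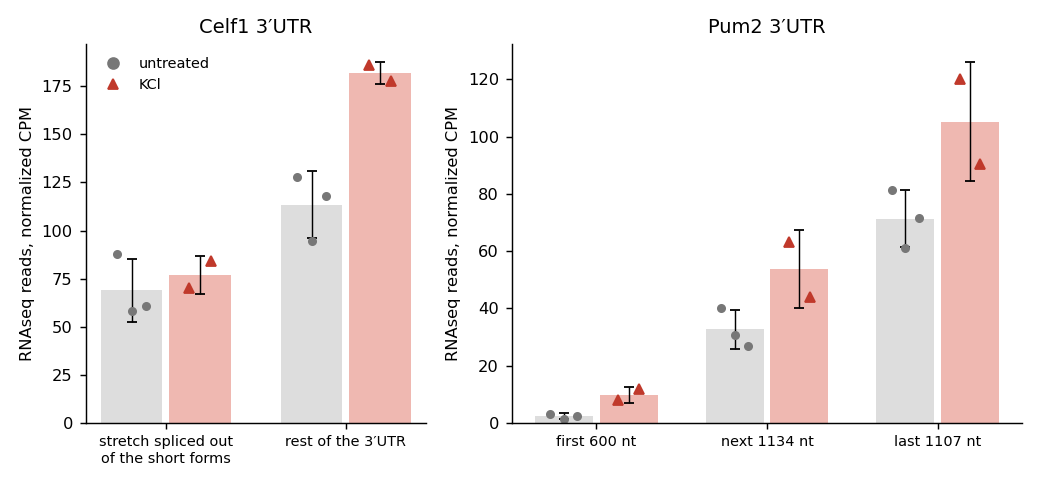
RNAseq reads in normalized CPM on pieces of the Celf1 (left) and Pum2 (right) 3′UTR. Bars are means and error bars SD of 3 untreated (grey circles) and 2 KCl cultures (red triangles); the Celf1 stretch missing from the short forms overlaps between groups, while the rest of the Celf1 3′UTR and all 3 Pum2 pieces are higher in both KCl cultures.

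Ribosomes were also found on the 5′UTRs of most members. Density per nt on the 5′UTR relative to the CDS, pooled over the untreated cultures, had a median of 0.342 over 6460 tested transcripts with a 5′UTR of at least 50 nt. Pum2-202, with a 275-nt 5′UTR that holds 2 upstream AUGs, had 65, 25 and 12 5′UTR footprints in untreated and 20 and 37 in KCl cultures. Its relative density was 0.576 in untreated and 0.815 in KCl cultures, and the single cultures overlapped. Fmr1-201, whose 276-nt 5′UTR has a GC content of 73.9% and no upstream AUG, had 15, 13 and 11 against 9 and 27 footprints. Its relative density was 0.254, 0.23 and 0.774 in untreated and 0.418 and 0.749 in KCl cultures, also overlapping. Fxr2-201, with the most GC-rich 5′UTR of the lead transcripts (81.4%, 328 nt), had 23, 19 and 6 against 8 and 16 footprints. Its relative densities of 0.324, 0.333 and 0.436 in untreated cultures lay below the 0.504 and 0.484 of the KCl cultures. In Celf1-207 the 126-nt 5′UTR went the other way, from 17, 22 and 4 to 3 and 5 footprints, with relative densities of 0.217, 0.347 and 0.322 against 0.142 and 0.116. The other 5′UTRs of Celf1 did not share this: for Celf1-203 the relative densities were 0.59, 0.363 and 1.72 against 0.318 and 0.683, and for Celf1-214 the pooled value was 0.193 in both groups. Celf4-201 had the highest pooled relative density of the lead transcripts in untreated cultures, 0.865, against 0.695 with KCl. It rested on 19, 18 and 11 against 8 and 9 footprints, with single values of 0.579, 0.976 and 2.61 against 1.05 and 0.534. The value depends on the annotated length, 123 nt for Celf4-201. Celf4-202, with the same footprints on 356 nt, had pooled values of 0.305 and 0.239, below the median over all transcripts. These rest on few reads and were not tested. Across whole libraries, 5′UTR reads made up 6.04 to 8.56% of RF reads, with untreated culture 3 the highest. Neither Fxr1 transcript had a 5′UTR read listed in RF or in RNAseq, although Fxr1-202 is annotated with 6 upstream AUGs in 217 nt. Cpeb4-202 had 1 to 3 reads per library on its 62-nt 5′UTR.

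The wider set of translational regulators around these genes was counted from lists of 86 symbols, older and current symbols of a gene included. Of these, 44 genes had a tested transcript, and 15 rose and 2 fell in RNAseq, 17 rose and 3 fell in RF, and 1 fell in TE. With 1 transcript a gene, 17.3% of all 4369 genes rose and 15.4% fell in RNAseq, 20.8% and 19.4% in RF, and 1.56% and 4.30% in TE. The lists were chosen with earlier results of these data known, so the counts are a description. Of the 44, 3 passed the RPKM minimum only with the help of a KCl culture, Tob2 and Ddx6 among them. Among 7 FMRP partners, Nufip2, which binds FMRP, rose by 1.37 in RNAseq and by 1.76 in RF, from 77.4, 76.9 and 79.4 to 255 and 269 normalized RPKM. Ybx3 fell by 0.53 in RF (adjusted p = 0.00327). Ddx6, an RNA helicase of repressed mRNPs, had an RF change of 0.94. It passed the RPKM minimum only with a KCl culture, so the Ddx6 call is no support for a rise.

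Among 10 partners in deadenylation and cap binding, 5 rose and 1 fell in RNAseq, and 3 rose and 2 fell in RF. Tob2, an adaptor between CPEB proteins and the CCR4-NOT deadenylase, changed the most, by 1.87 in RNAseq and 2.09 in RF, from 26.8, 30.6 and 25.3 to 113 and 125 normalized RPKM. In RNAseq it was at 11.2, 12.6 and 11.9 in untreated cultures, and it passed the RPKM minimum only with a KCl culture. The Tob2 call is therefore no support for a rise. Its paralog Tob1 rose by 0.50 in both. Cnot1, the scaffold of the deadenylase, rose by 0.69 in RNAseq and 0.61 in RF, and Pabpc1, the main poly(A) binding protein, by 0.53 in RNAseq (adjusted p = 0.00484). For Pabpc1 the RF change was -0.02 (adjusted p = 0.919) and the TE change -0.53 (adjusted p = 0.167). Cnot6, a catalytic subunit, rose by 0.46 in RNAseq (adjusted p = 0.0239) and was the single gene of the lists to pass in TE, where it fell by 0.84 (adjusted p = 0.0377). Parn, a poly(A)-specific ribonuclease, fell by 0.69 in RNAseq and by 0.65 in RF. Eif4ebp2, the main neuronal 4E-BP, fell by 1.08 in RF (adjusted p = 0.00114) from 75.5, 73.9 and 96.2 to 32.1 and 39.9 normalized RPKM.

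Of 20 other mRNA-binding proteins, 7 rose and 1 fell in RNAseq and 9 rose in RF. Elavl1, which stabilizes AU-rich mRNAs, rose by 0.75 and 0.92 in RNAseq and RF. Ptbp1, a splicing repressor that is low in mature neurons, rose by 0.96 and 1.08, and Mbnl2, a splicing regulator, by 0.76 and 1.17. Zfp36l1, which promotes decay of AU-rich mRNAs, fell by 0.38 in RNAseq (adjusted p = 0.0322). Of 6 known targets of these proteins that were tested, Dlg4, which encodes the postsynaptic scaffold PSD-95, rose by 0.63 in RNAseq (adjusted p = 0.00248), with an RF change of -0.18 (adjusted p = 0.507) and a TE change of -0.78 (adjusted p = 0.0796). App rose by 0.42 (adjusted p = 4.73e-05) and Plat by 0.27 (adjusted p = 0.00682) in RF. None of the 6 passed in TE.

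Since no member passed in TE in gene sums, likeness was computed for Cpeb4, the member with the largest RF change. The genes whose log2 CPM, centred within each assay over the 10 libraries, was most like that of Cpeb4 were Crkl (Pearson r = 0.996), Slc6a6 (r = 0.994) and Pdzrn3 (r = 0.993). They rose by 1.12, 0.94 and 1.41 in RNAseq and by 1.27, 1.03 and 1.49 in RF. The libraries share the KCl contrast that sets the order, so these correlations are a description only.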

How the data were processed

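RNAseq and RF were measured in 3 untreated and 2 KCl cultures. The authors had removed a further KCl replicate because its library was much smaller than the others. The authors trimmed reads with Trimmomatic 0.32, removed rRNA with STAR 2.3.1z8, aligned to the mm10 transcriptome with Bowtie2 2.2.2, counted with bedtools 2.20.1 (versions from the submitters' processing notes), and deposited raw read counts per transcript region. Of 22534 transcripts, 22172 were matched to GENCODE M21 (GRCm38), which may differ from the authors' annotation. Region letters were read as 5′UTR, CDS and 3′UTR from their order, read shares and lengths, and 1 letter stayed unnamed. RNAseq values are reads on all regions and RF values reads on the CDS. Positions around start and stop codons were not masked.

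The tests were quasi-likelihood fits in edgeR 4.0.16 (R 4.3.3) with TMM within each assay and Benjamini-Hochberg adjustment at 0.05. TE was the interaction of assay and KCl with culture as a replicate block, since RNAseq and RF of a number come from the same lysate. Deviations from group means correlated between the assays of a culture at -0.074 to 0.064. Scripts were tested on simulated counts. Tables used Python 3.11.15, pandas 2.3.3 and numpy 2.4.6. Alternatives were DESeq2 1.42.0, library totals, TMM over all libraries, filterByExpr, no filter, CDS reads for RNAseq, a single fit, no block, and each culture left out. Named are the 9 member genes, each by its lead transcript (the tested one with the most RNAseq reads, or for Fmr1, with none tested, the one with the most; Celf2 and Cpeb2 have none in the counts), and list genes past the threshold. Members and lists were chosen with earlier results of these data known.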

Additional observations from a re-analysis of the deposited data

How the results depend on the processing

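TE rests on 82 to 127 RNAseq reads per culture for Fmr1-201 and on 57 to 148 for Fxr2-201. Without the replicate block, 420 transcripts and 171 gene sums passed in TE in place of 421 and 157, and no member call changed. Of 384 alternative values for the changes of single members, 342 kept direction and call, 19 lost a call, 2 gained 1 and 21 changed sign. In no case did a called value change sign. The cause of these differences was not tested.

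Other filters moved the number of called transcripts from 2395 to 4232 (filterByExpr) and 4166 (no filter beyond 1 read) in RNAseq and from 2971 to 5330 and 5412 in RF. A single transcript per gene, chosen after the data were seen, gave 1442 in RNAseq, 1744 in RF and 262 in TE. RNAseq from CDS reads gave 1529 transcripts and 833 gene sums (2093 in the main test) in RNAseq, and 266 and 57 in TE. DESeq2 gave 161 in TE. Leaving out a culture gave 1638 to 2637 transcripts and 1151 to 2078 gene sums in RNAseq, 1698 to 3233 and 1445 to 2657 (2764 with all) in RF, and 70 to 547 and 64 to 196 in TE, with the lowest in RF and TE without KCl culture 5 and the lowest RNAseq gene sums without KCl culture 4.

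Of the 6 lead transcripts, 2 passed in TE in the main test, 0 with DESeq2, 1 with RNAseq from CDS reads, and 0 to 2 with a culture left out. Of the 7 gene sums, 5 passed in RNAseq, 3 with CDS reads and 3 to 5 with a culture left out. In TE 0 passed, and 0 to 1 with a culture left out. The 1 is Fxr1 without untreated culture 2 (1.12, adjusted p = 0.00546).

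Values that changed sign lay near 0 and none was called. With RNAseq from CDS reads, Celf4 RNAseq was 0.27 (gene sum 0.33), Pum2 TE 0.06 (0.08) and Celf1 TE -0.14 (-0.17). With library totals the Celf1 TE gene sum was -0.01. With a culture left out, Celf4 RNAseq ranged from -0.25 to 0.06 (gene sum -0.16 to 0.13), Fxr1 RNAseq from -0.02 to 0.42, Pum2 TE from -0.16 to 0.07 (-0.10 to 0.08) and Celf1 TE from -0.01 to 0.20 (-0.07 to 0.14). With filterByExpr, Fxr2-201 passed in RF (0.36, adjusted p = 0.0446).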
